A study of Mus musculus with 8 samples.

Results

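The 9 genes described here belong to the interferon pathway: Stat2, Irf1, Irf7, Irf9, Ifit1, Ifit3, Isg15, Bst2 and Ifitm3. They were chosen by symbol out of 55385 genes in the deposited table, and every one of the 9 had a single row there. RNA was measured in 4 iKO and 4 WT libraries of flow-sorted neural stem and progenitor cells (NSPCs) of the mouse cortex at postnatal day 7. The iKO mice carried Nestin-CreERT2, Ash2l f/f (both Ash2l alleles flanked by loxP sites) and a tdTomato reporter. The WT mice carried Nestin-CreERT2 and tdTomato without the floxed alleles, so both groups held the tamoxifen-activated Cre, which the Nestin promoter confines to cells that use that promoter. ASH2L is a core subunit of the enzyme complexes that methylate lysine 4 of histone H3. The values were TPM, a relative abundance that takes account of both the length of a transcript and the total of its library, from full-length cDNA made by Smart-Seq2. TPM keeps no read depth, so the depth behind each value is unknown.

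Interferons are secreted proteins that cells release when they sense viral or displaced nucleic acids. A type I interferon binds the receptor pair IFNAR1 and IFNAR2, whose kinases JAK1 and TYK2 phosphorylate STAT2. STAT2 then enters a complex with IRF9 called ISGF3, which binds the interferon-stimulated response element in the promoters of antiviral genes. Interferon gamma acts through IFNGR1, IFNGR2, JAK1 and JAK2 and on a different motif, the gamma-activated site. In the brain, neural stem cells, astrocytes and microglia can all respond to interferons, and many response genes are also transcribed at a low level without any added interferon.

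Promoter sequences were searched for the DNA elements through which these 2 kinds of signal act, to show what the 9 genes share. RefSeq windows on GRCm38.p6, from 250 bases before to 50 after each gene start, were found for all 9 genes, with 11 windows in all. The core of the interferon-stimulated response element was searched as GAAANNGAA on both strands, with overlapping matches counted separately. It was present in 6 of the 9 genes, against 8.56% of the 32851 windows searched. Ifit1, Ifit3 and Isg15 each held 3 matches, a number reached by 0.064% of all windows. Bst2 and Ifitm3 held 2 matches and Stat2 held 1, and 0.62% of all windows held at least 2. The stretches below, written 5′ to 3′ on the strand of the gene, show those matches in capitals.
Ifit1, chr19:34640755-34640838, plus strand: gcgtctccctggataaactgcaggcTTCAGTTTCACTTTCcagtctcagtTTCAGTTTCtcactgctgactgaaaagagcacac
Ifit3, chr19:34583349-34583460, plus strand: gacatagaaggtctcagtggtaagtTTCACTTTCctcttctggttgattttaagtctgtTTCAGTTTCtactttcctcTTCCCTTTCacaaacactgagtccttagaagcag
Isg15, chr4:156200851-156200921, minus strand: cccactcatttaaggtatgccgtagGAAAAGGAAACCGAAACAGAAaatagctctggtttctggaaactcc
Bst2, chr8:71537563-71537627, minus strand: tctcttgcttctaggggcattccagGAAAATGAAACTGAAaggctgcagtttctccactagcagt
Ifitm3, chr7:141010715-141010767, minus strand: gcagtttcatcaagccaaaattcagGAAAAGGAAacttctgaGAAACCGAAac
Stat2, chr10:128270252-128270310, plus strand: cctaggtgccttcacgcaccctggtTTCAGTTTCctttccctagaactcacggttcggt
The runs in Ifit1, Isg15 and Bst2 include matches that overlap each other. Counted from 1 at the gene start, the matches lay at positions -109 to -76 in Ifit1, -155 to -94 in Ifit3 and -78 to -58 in Isg15. Those of Ifitm3 lay after the start, at positions 3 to 28. No exact match was found in the windows of Irf1, Irf7 and Irf9. The gamma-activated site, searched as TTCNNNGAA, was present in Irf1, Bst2 and Ifitm3, against 8.3% of all windows. A match is a description of the letters and does not show that a factor binds there.

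Ash2l (ENSMUSG00000031575.18), the targeted gene, was lower in every iKO library, at 7.13 ± 0.714 TPM in iKO, against 17.6 ± 1.33 TPM in WT (SD, n = 4 each). Genes reaching 1 TPM numbered 16089 to 16616 per library, and the log2(TPM + 1) values of libraries correlated at 0.9871 to 0.9897 within a group and at 0.9623 to 0.9645 between the groups. Markers of the sorted cells were present in every library: all 12 NSPC markers reached 1 TPM, among them Nes, Pax6 and Hes5. Nes averaged 70.6 TPM in iKO libraries, against 59.6 TPM in WT libraries, and Slc1a3, a transporter gene that astrocytes share, 1241 TPM in iKO libraries, against 2039 TPM in WT libraries. Among the astrocyte markers, Aqp4 averaged 1167 TPM in iKO libraries, against 1267 TPM in WT libraries. All 8 astrocyte, 8 neuroblast, 18 microglia and macrophage and 14 endothelial markers also reached 1 TPM in at least 4 libraries. Transcripts of both sexes were present in all libraries, and Y-linked Ddx3y stood at 22.5 to 24.8 TPM in iKO, against 49.5 to 56.8 TPM in WT. The series text calls the libraries biological replicates without tying each to 1 animal. The spread behind every p-value is therefore that between libraries, and it may be technical.

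The comparison asked how RNA of the interferon genes differs between Ash2l-deleted and control cells. Each fold change is the iKO mean minus the WT mean of log2(TPM + 1), a scale on which changes of low genes come out too small. A call was made at a Benjamini-Hochberg adjusted p under 0.05 in limma, over the 16413 genes that reached 1 TPM in at least 4 libraries. Of the 9 genes, 7 entered this test, 5 fell, 1 rose and 1 did not pass. Irf1, Irf9, Ifit1, Ifit3 and Ifitm3 were the 5 that fell, Bst2 rose, and Stat2 did not pass. Ifit1 entered through the WT libraries alone. Irf7 and Isg15 were below the filter. The same threshold called 52.6% of all genes tested, 31.9% lower and 20.7% higher, and the median of all tested genes was -0.06, so a call by itself does not set a gene apart here. The share of calls that were higher was 39.3%, against 51.1% with trimmed mean of M values factors, 49.7% with quantile normalization and 51.5% with a length and GC trend removed. The iKO and WT libraries did not overlap for 7 of the 9 genes, Irf7 among them, which is below the filter. Among the 7 tested genes, all except Stat2 were without overlap, against 49.2% of all genes tested. In the authors' deposited table, 6 of the 9 genes passed an adjusted p of 0.05, the same 5 lower and Bst2 higher, against 33.9% of the genes with a p-value there. In bulk RNA, fewer cells of a type and less RNA per cell cannot be told apart. Summed markers of microglia and astrocytes were lower, and those of endothelial cells higher, in every iKO library, and their part in these values was not tested.

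**Figure D1:**
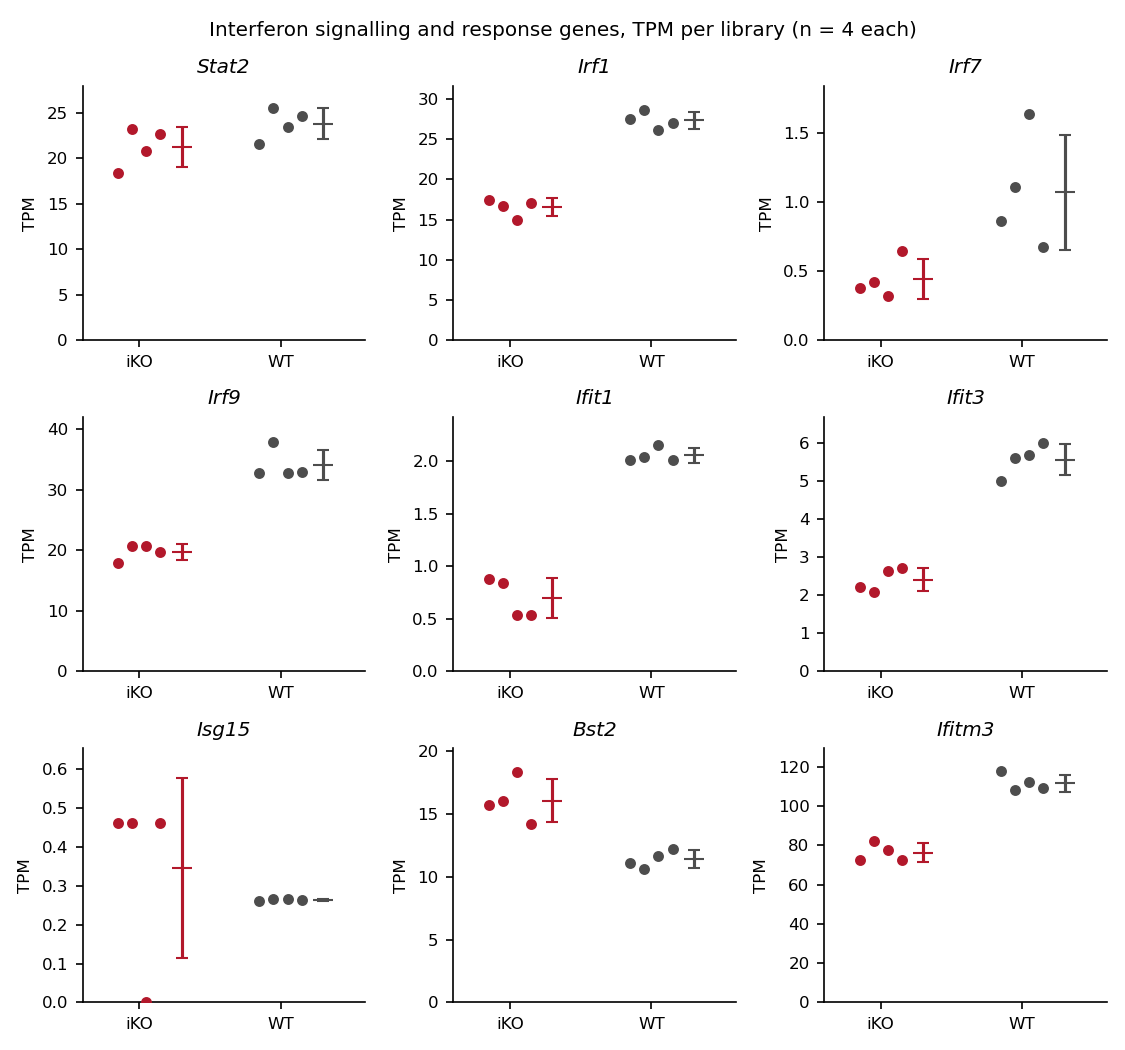
TPM of each of the 9 genes in every library, with iKO libraries 1 to 4 in red and WT libraries 1 to 4 in grey; the bar beside each group is the mean ± SD (n = 4) and each panel has its own axis from 0. The 2 groups do not overlap for any gene except Stat2 and Isg15, and Bst2 is the one gene with all iKO values above all WT values.

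Irf9 and Stat2 encode proteins of the ISGF3 complex, and of these genes Irf9 fell and Stat2 did not pass. Irf9 (ENSMUSG00000002325.15), the subunit that recognises the DNA element, had 17.99, 20.72, 20.72 and 19.70 TPM in iKO libraries, against 32.81, 37.95, 32.88 and 32.91 TPM in WT libraries. Every iKO value was below every WT value, and WT replicate 2 stood above the other 3 WT libraries. The log2 fold change was -0.76 (SE 0.0641, limma adjusted p = 1.64e-05), and WT held 1.73 times the iKO level. Stat2 (ENSMUSG00000040033.16), which brings the activating domain to the complex, had 18.34, 23.21, 20.81 and 22.71 TPM in iKO, against 21.55, 25.51, 23.49 and 24.59 TPM in WT. The groups overlapped, and the log2 difference of -0.16 had a 95% interval of -0.34 to 0.03 (limma adjusted p = 0.13). The authors' deposited table gave Stat2 a log2 fold change of -0.004 with an adjusted p of 0.968. In the GENCODE M21 models an exon of Irf9 shares 123 bases with Rnf31 on the same strand, and Rnf31 averaged 11.8 TPM in iKO, against 10.3 TPM in WT.

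Irf1 and Irf7 are transcription factors that interferons themselves raise. Irf1 (ENSMUSG00000018899.16), whose product activates both interferon genes and response genes, had 17.40, 16.73, 14.90 and 17.01 TPM in iKO, against 27.54, 28.56, 26.09 and 27.04 TPM in WT. The groups were well apart, with the highest iKO library at 17.4 TPM and the lowest WT library at 26.1 TPM. Irf1 fell by 0.69 on the log2 scale (SE 0.0551, limma adjusted p = 1.11e-05), and the authors' deposited table gave -0.64. Irf7 (ENSMUSG00000025498.15), the main amplifier of type I interferon production, was near the limit of measurement, at 0.380, 0.421, 0.323 and 0.652 TPM in iKO, against 0.863, 1.12, 1.64 and 0.674 TPM in WT. The iKO libraries lay below the WT libraries, but iKO replicate 4 and WT replicate 4 differed by little. A two-sided exact permutation test gave p = 0.0286, the smallest that 4 against 4 allows, as 1 of 6 such unadjusted tests. With trimmed mean of M values factors the groups overlapped for Irf7 and the exact permutation p was 0.0571. The authors' deposited table gave Irf7 a log2 fold change of -0.37 with an adjusted p of 0.52 and a mean normalized signal of 10.99 per library. The Irf7 and Irf1 models share 45 bases with Phrf1 and 100 bases with Gm17334, each on the opposite strand, and whether the authors' counting used strand is not given in the sources used here.

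Ifit1 and Ifit3 belong to the IFIT family, of which IFIT1 binds viral RNA that lacks the cap methylation of host messages. Ifit1 (ENSMUSG00000034459.8) had 0.884, 0.844, 0.536 and 0.535 TPM in iKO, against 2.01, 2.04, 2.16 and 2.02 TPM in WT. The WT libraries agreed closely and none of the iKO libraries reached 1 TPM, so Ifit1 entered the test through WT alone and a difference was built into its passing. Its log2 fold change was -0.85 (SE 0.103, limma adjusted p = 0.000148), with 2.94 times as much in WT. The authors' deposited table, which is not on the log2(TPM + 1) scale, gave Ifit1 -1.46. Ifit3 (ENSMUSG00000074896.3) had 2.23, 2.08, 2.64 and 2.73 TPM in iKO, against 5.01, 5.60, 5.68 and 5.999 TPM in WT. All WT libraries exceeded all iKO libraries, and the log2 fold change of -0.95 (SE 0.0884, limma adjusted p = 2.94e-05) was the lowest of the 7 genes tested on this scale, whereas with a pseudocount of 0.1 Ifit1 was lower, at -1.46, against -1.18 for Ifit3. Only 2.87% of tested genes had a value at or below that of Ifit3.

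Ifit3 has a near-identical copy, Ifit3b, with 97.8% identity over 97.4% of the shorter transcript, so reads could be split between them. Ifit3b alone had 1.06 ± 0.310 TPM in iKO, against 1.21 ± 0.366 TPM in WT (SD, n = 4 each), and the groups overlapped (exact permutation p = 0.514). Summed with its copy, Ifit3 had 3.05, 3.36, 4.0 and 3.48 TPM in iKO, against 6.03, 6.88, 7.36 and 6.84 TPM in WT. The sum did not overlap between groups (log2 -0.80, exact permutation p = 0.0286). Ifit2, another gene of the family, fell to 9.21 ± 0.160 TPM in iKO, against 18.1 ± 0.891 TPM in WT (SD, n = 4 each; log2 -0.90, SE 0.0482, limma adjusted p = 1.05e-06).

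Isg15 (ENSMUSG00000035692.7) encodes a ubiquitin-like protein that is attached to other proteins after interferon. It was listed at 0.462, 0.463, 0 and 0.460 TPM in iKO, against 0.261, 0.266, 0.265 and 0.264 TPM in WT. Replicate 3 of iKO was listed at 0 while the other 3 iKO libraries lay above all WT libraries, so the groups overlapped (exact permutation p = 0.657). The authors' deposited table gave Isg15 a mean normalized signal of 1.24 per library, so no difference was detectable at this level. Gm9706, a processed pseudogene whose transcript matches Isg15 at 95.2% identity along its length, was listed at 0 in all 4 iKO libraries and at 0.550, 1.13, 0.560 and 1.67 TPM in WT. The sum of Isg15 and Gm9706 was 0.462, 0.463, 0 and 0.460 TPM in iKO, against 0.811, 1.39, 0.825 and 1.94 TPM in WT (exact permutation p = 0.0286). The differences of Isg15 alone and of the sum therefore had opposite signs, and which of the 2 genes the reads came from cannot be told from TPM.

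Bst2 and Ifitm3 encode membrane proteins that act on virus particles, and they moved in opposite directions. Bst2 (ENSMUSG00000046718.8), or tetherin, which holds budding virions at the cell surface, had 15.74, 16.04, 18.38 and 14.18 TPM in iKO, against 11.07, 10.66, 11.67 and 12.25 TPM in WT. Every iKO library was above every WT library. The log2 fold change was 0.46 (SE 0.0782, limma adjusted p = 0.00116), 1.41 times the WT level, and 7.94% of tested genes had a value at or above it. Ifitm3 (ENSMUSG00000025492.6), which blocks fusion of virions with endosomes, was the most abundant of the 9 genes, at 72.67, 82.32, 77.74 and 72.67 TPM in iKO, against 117.7, 108.0, 112.2 and 109.0 TPM in WT. The lowest WT library, at 108.0 TPM, stood well above the highest iKO library, at 82.3 TPM. Ifitm3 fell by 0.54 on the log2 scale (SE 0.0468, limma adjusted p = 1.81e-05). Its neighbours of the same family did otherwise: Ifitm2 had 164 ± 8.69 TPM in iKO, against 162 ± 4.16 TPM in WT, and did not pass (limma adjusted p = 0.836), with a difference of 0.01 that changed sign under quantile normalization and with the length and GC trend removed. Ifitm1 rose to 16.2 ± 2.16 TPM in iKO, against 9.50 ± 2.39 TPM in WT (log2 0.74, SE 0.176, limma adjusted p = 0.00719). Neither reached 95% identity with Ifitm3.

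In WT libraries the levels of the 9 genes, which TPM scales for length, followed the order Ifitm3, Irf9, Irf1, Stat2, Bst2, Ifit3, Ifit1, Irf7 and Isg15, and no neighbours in that order overlapped. In iKO libraries the middle of the order closed up. Stat2 at 18.3 to 23.2 TPM overlapped Irf9 at 17.99 to 20.72 TPM, and Irf1 at 14.9 to 17.4 TPM overlapped Bst2 at 14.2 to 18.4 TPM. At the low end Ifit1, Irf7 and Isg15 also overlapped their neighbours. The spread between libraries was 3.77% to 10.8% of the mean for the genes above 5 TPM in both groups. It differed more among the low genes, from 66.7% for Isg15 in iKO to 0.854% for Isg15 in WT. Between these lay 39.1% for Irf7 in WT, 27.1% for Ifit1 in iKO and 3.41% for Ifit1 in WT. The authors' deposited table gave Isg15 a mean normalized signal of 1.24 per library, so its spreads rest on few reads.

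The genes upstream of the 9 were taken from lists of ligands, receptors, kinases and factors. Interferon ligand RNA was at or near the limit of measurement: 16 of 21 ligand genes, Ifnb1 among them, were listed at 0 in all libraries, and none entered the test. Ifnk, a type I interferon of keratinocytes, had the highest ligand value, 1.41 TPM in 1 iKO library, and ranged from 0.176 to 1.41 TPM in iKO and from 0 to 0.203 TPM in WT. The authors' deposited table called Ifnk higher in iKO, at a mean normalized signal of 2.17 per library (log2 3.70, adjusted p = 0.014). Ifng was between 0.0995 and 0.199 TPM in iKO and between 0 and 0.681 TPM in WT. Of the 8 receptor and kinase genes tested, 1 rose, 1 fell and 6 did not pass, where 31.9% of all tested genes fell and 20.7% rose. Under the 3 other scalings 2 to 4 of the 8 rose. Those scalings also called more of all tested genes higher, 4175 to 4346 instead of 3392. Ifngr1, the ligand-binding chain for interferon gamma, fell to 99.2 ± 2.49 TPM in iKO, against 132 ± 3.69 TPM in WT (log2 -0.41, SE 0.0288, limma adjusted p = 5.29e-06). Jak1 rose to 107 ± 3.53 TPM in iKO, against 87.7 ± 9.90 TPM in WT (log2 0.29, SE 0.0726, limma adjusted p = 0.009). The type I receptor chains did not pass: Ifnar1 had 49.8 ± 0.980 TPM in iKO, against 49.1 ± 2.39 TPM in WT, and Ifnar2 had 48.6 ± 3.97 TPM in iKO, against 43.5 ± 2.07 TPM in WT. Ifnar1 was called higher with the length and GC trend removed (log2 0.11, limma adjusted p = 0.0433) and in the authors' deposited table (log2 0.15, adjusted p = 6.87e-05). For Ifnar2 the log2 difference of 0.15 passed under all 3 other scalings, while the authors' deposited table gave -0.16 with an adjusted p of 0.00348. Tyk2 was at 6.82 TPM in both groups, and Jak2 had 7.91 ± 0.278 TPM in iKO, against 8.71 ± 0.245 TPM in WT (limma adjusted p = 0.062).

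Of the 11 STAT and IRF factor genes tested, 4 fell, 1 rose and 6 did not pass. Over all tested genes 31.9% fell and 20.7% rose, so the share of these factors that fell was near the background. Their median log2 difference was -0.16. Beside Irf9 and Irf1, the genes that fell were Stat3, at 122 ± 4.08 TPM in iKO, against 153 ± 6.20 TPM in WT, and Irf5, a factor of myeloid cells, at 1.87 ± 0.188 TPM in iKO, against 3.01 ± 0.267 TPM in WT. Irf3, the factor that cytosolic sensors activate, rose to 96.1 ± 4.26 TPM in iKO, against 83.4 ± 2.13 TPM in WT (log2 0.20, SE 0.0368, limma adjusted p = 0.00173). Stat6 and Irf8 did not pass, with log2 differences of -0.07 and -0.09. The 4 that fell and the 1 that rose were equally many under each of the 3 other scalings.

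**Figure D2:**
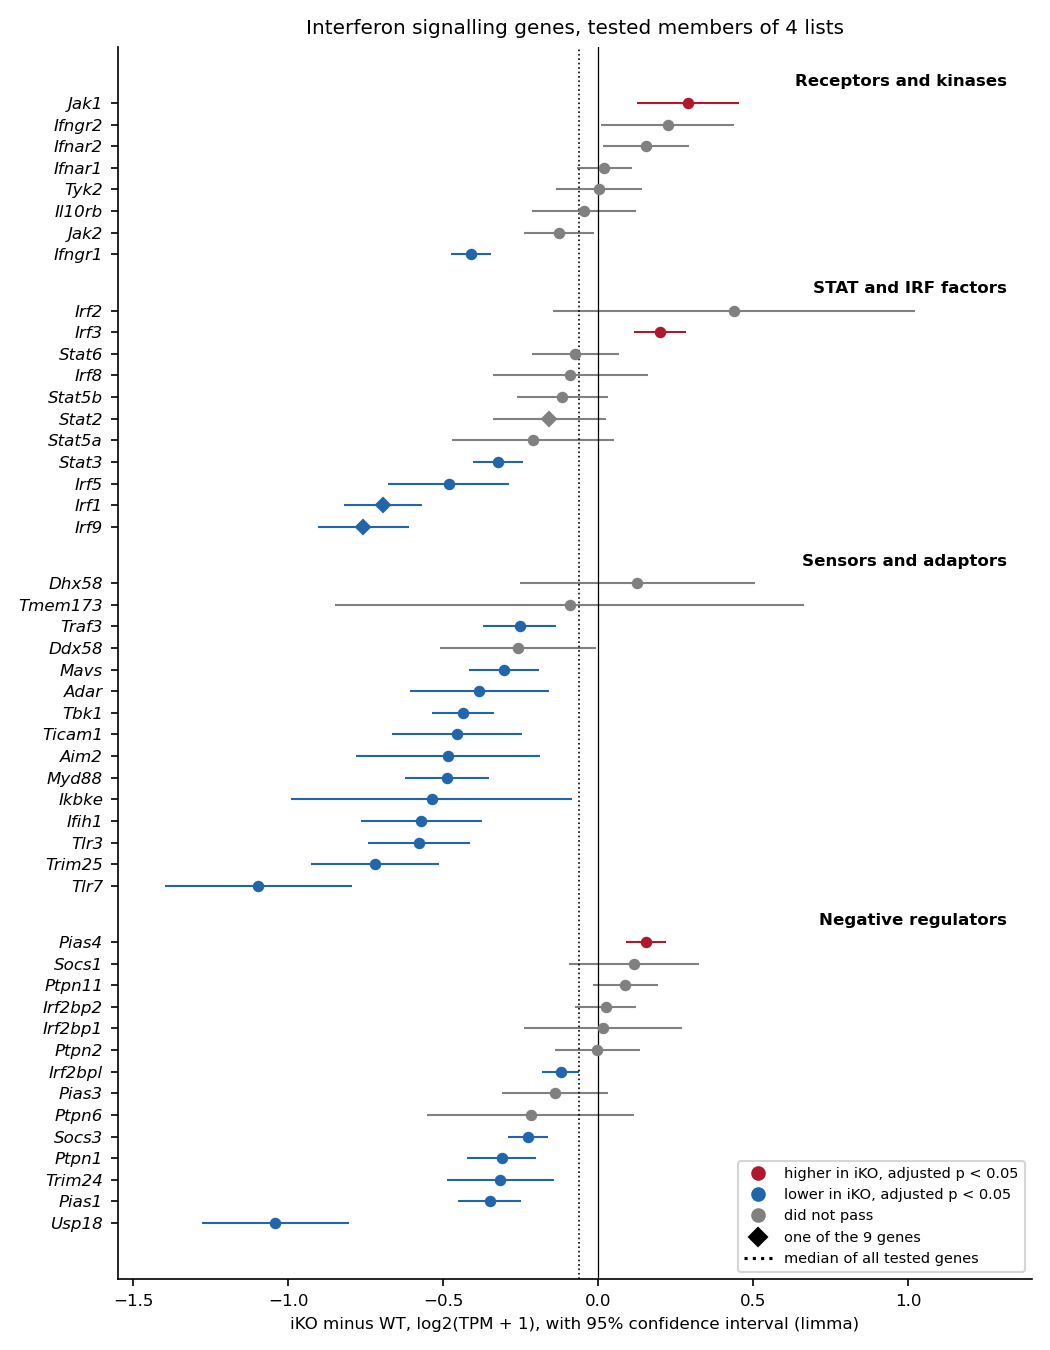
Log2 fold change on the log2(TPM + 1) scale, iKO minus WT, with its 95% interval, for the tested members of 4 lists; red is higher in iKO, blue is lower, grey did not pass, and the dotted line is the median of all tested genes. Receptors and kinases lie on either side of that line, while 12 of the 15 sensors and adaptors are lower in iKO and none is higher.

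Sensors of foreign nucleic acid, and the adaptors that carry their signal to interferon genes, were mostly lower in iKO. Of 15 tested, 12 fell, none rose and 3 did not pass. Their median log2 difference was -0.46, against -0.06 over all tested genes and 31.9% of genes lower. Tlr7, an endosomal receptor for single-stranded RNA, fell to 1.42 ± 0.301 TPM in iKO, against 4.18 ± 0.748 TPM in WT (log2 -1.10, SE 0.133, limma adjusted p = 0.000147). Tlr3, the receptor for double-stranded RNA, fell to 3.57 ± 0.193 TPM in iKO, against 5.83 ± 0.473 TPM in WT. Tbk1, the kinase that phosphorylates IRF3, fell to 97.2 ± 4.60 TPM in iKO, against 132 ± 6.32 TPM in WT (log2 -0.44, SE 0.0443, limma adjusted p = 4.89e-05). The adaptor Myd88 fell to 10.9 ± 0.910 TPM in iKO, against 15.6 ± 0.204 TPM in WT. Dhx58 and Tmem173, which encode LGP2 and STING, did not pass, at log2 differences of 0.13 and -0.09. The count of sensors that fell was 10 to 11 under the other 3 scalings, since Ikbke, and with quantile normalization Traf3, no longer passed. Tlr7 is a gene of microglia, whose markers were also lower in iKO, at a median log2 difference of -0.46, and the part of those cells was not tested.

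Of 14 negative regulators tested, 6 fell, 1 rose and 7 did not pass, a share of calls near the 52.6% of all tested genes, and under the 3 other scalings 5 to 6 fell and 2 to 3 rose. Usp18, which removes ISG15 and blocks the type I receptor, fell to 2.30 ± 0.414 TPM in iKO, against 5.77 ± 0.585 TPM in WT (log2 -1.04, SE 0.105, limma adjusted p = 4.59e-05). Socs3, an inhibitor of JAK signalling, fell to 211 ± 7.93 TPM in iKO, against 246 ± 4.24 TPM in WT, and Pias1 fell to 52.9 ± 1.81 TPM in iKO, against 67.8 ± 3.65 TPM in WT. The phosphatase gene Ptpn1 fell by 0.31 on the log2 scale, while Ptpn2 and Irf2bp1 did not pass, at log2 differences of -0.00 and 0.02. Of the 5 tested genes for ISG15 conjugation, Usp18, Trim25 and Herc6 fell, where 31.9% of all tested genes fell. All of them are also counted in other lists. Usp18 is among the negative regulators and the response genes, Trim25 among the sensors and adaptors, and Herc6 among the response genes. Herc6, the mouse ligase for ISG15, had 6.51 ± 1.16 TPM in iKO, against 11.4 ± 1.80 TPM in WT. Trim25 had 2.29 ± 0.190 TPM in iKO, against 4.43 ± 0.551 TPM in WT. Ube2l6, the conjugating enzyme, had 23.2 ± 2.33 TPM in iKO, against 25.04 ± 3.27 TPM in WT, and Uba7, the activating enzyme, had 4.35 ± 1.495 TPM in iKO, against 4.30 ± 1.23 TPM in WT, and neither passed. The authors' deposited table called Ube2l6 lower (log2 -0.27, adjusted p = 0.0387).

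Downstream, a list of 50 interferon response genes held 5 of the 9 genes and 45 others. Of the 36 others tested, 22 fell, 2 rose and 12 did not pass, where 31.9% of all tested genes fell and 20.7% rose. Their median log2 difference was -0.38, and 2 of the 36 entered through WT alone. With no filter on low values, 23 of the 45 others fell and 1 rose, where 5752 of all 29490 genes fell and 3747 rose. Ddx60, a helicase that aids RNA sensing, fell to 1.10 ± 0.168 TPM in iKO, against 5.29 ± 0.578 TPM in WT (log2 -1.58, SE 0.0977, limma adjusted p = 2.51e-06), and WT held 4.8 times the iKO level. Cmpk2, a mitochondrial nucleotide kinase, fell to 10.8 ± 0.427 TPM in iKO, against 22.9 ± 1.97 TPM in WT (log2 -1.02, SE 0.0646, limma adjusted p = 2.84e-06). Rtp4 fell to 11.9 ± 1.07 TPM in iKO, against 23.7 ± 1.53 TPM in WT. Besides Bst2, Ifitm1 and Xaf1 rose among the 40 response genes tested, joined by Ifi35 with trimmed mean factors and quantile normalization. Xaf1 did not pass in the authors' deposited table (adjusted p = 0.212). The lower count, 25 of 40 with Ifit1, Ifit3, Bst2 and Ifitm3 included, was 24 under each of the 3 other scalings.

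**Figure D3:**
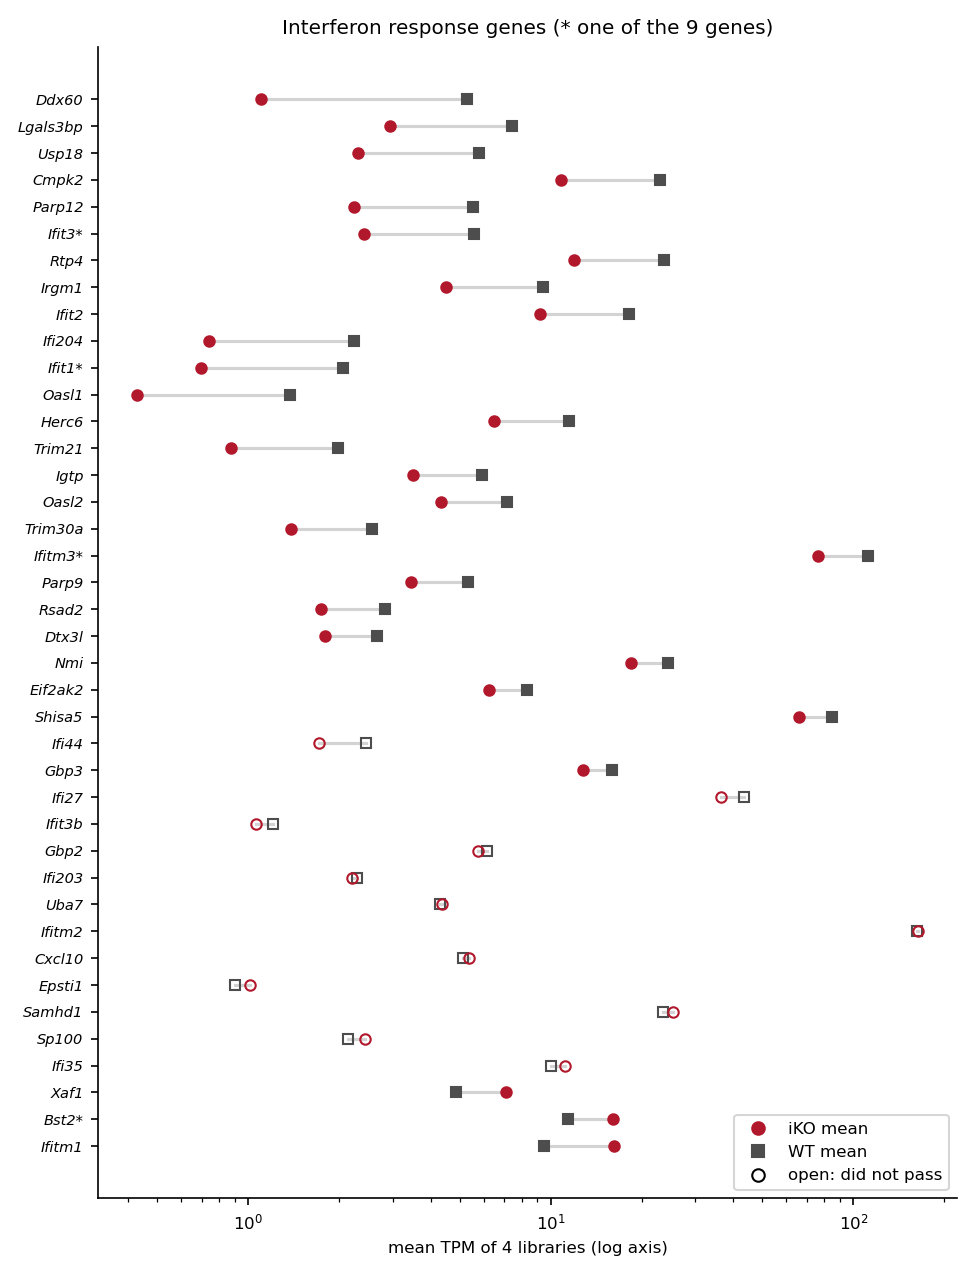
Mean TPM over 4 libraries, on a log axis, of the 40 tested interferon response genes in iKO (red circles) and WT (grey squares), ordered by log2 fold change with the lowest at the top; open symbols mark genes that did not pass and stars mark genes among the 9. Of the 40 genes, 25 fell and 3 rose, and Ifitm1, Bst2 and Xaf1 are the 3 that stand higher in iKO.

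Antigen presentation by class I molecules is another process that interferons raise. Of its 9 tested genes, 6 fell and none rose, where 31.9% of all tested genes fell, with a median log2 difference of -0.35, and Psmb10 was called higher with trimmed mean factors. H2-K1 fell to 94.8 ± 2.92 TPM in iKO, against 188 ± 3.64 TPM in WT (log2 -0.98, SE 0.0276, limma adjusted p = 2.76e-08), and H2-D1 fell to 53.9 ± 3.90 TPM in iKO, against 102 ± 4.99 TPM in WT. B2m, the light chain, fell to 203 ± 5.24 TPM in iKO, against 291 ± 8.84 TPM in WT, and Tapbp, which loads peptides, fell to 82.3 ± 0.995 TPM in iKO, against 102 ± 2.76 TPM in WT. The immunoproteasome genes Psmb8, Psmb9 and Psmb10 did not pass, at log2 differences of -0.35, 0.26 and 0.11. The authors' deposited table called Psmb8 lower (log2 -1.045, adjusted p = 0.021). It gave Psmb9 0.41 with an adjusted p of 0.402 and Psmb10 -0.16 with an adjusted p of 0.171.

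Several marker lists differed between the groups together with these genes. The counts of markers below stand beside 31.9% of all tested genes lower and 20.7% higher in iKO. Microglia and macrophage markers summed to 728 to 757 TPM in iKO, against 874 to 937 TPM in WT; 12 of 18 fell, 2 rose, their median log2 difference was -0.46 and none was at 0. Among them Csf1r fell to 40.2 ± 1.66 TPM in iKO, against 60.2 ± 2.65 TPM in WT, and Tmem119 fell to 13.0 ± 0.317 TPM in iKO, against 26.7 ± 1.18 TPM in WT, while Fcrls rose to 53.4 ± 2.72 TPM in iKO, against 25.4 ± 0.148 TPM in WT. Endothelial markers summed to 1186 to 1259 TPM in iKO, against 779 to 809 TPM in WT, with 11 of 14 higher and 1 lower. Astrocyte markers summed to 3110 to 3278 TPM in iKO, against 3887 to 3988 TPM in WT, with 6 of 8 lower and 1 higher. NSPC markers summed to 3619 to 3704 TPM in iKO, against 4237 to 4319 TPM in WT, with 6 of 12 lower and 2 higher. Slc1a3, which astrocytes share, averaged 1241 TPM in iKO, against 2039 TPM in WT, and alone fell by more than the sum did. Among the NSPC markers that rose, Fabp7 averaged 925 TPM in iKO, against 664 TPM in WT. Neuroblast markers summed to 2068 to 2136 TPM in iKO, against 1799 to 1843 TPM in WT, with 6 of 8 higher and 2 lower. Pericyte and fibroblast markers summed to 668 to 699 TPM in iKO, against 581 to 612 TPM in WT. Of these 10 pericyte and fibroblast markers 4 rose and 5 fell, with a median log2 difference of -0.11, and most of the sum was Rgs5, which rose to 474 TPM in iKO, against 364 TPM in WT. Neutrophil and monocyte markers summed to 24.6 to 31.9 TPM in iKO, against 9.46 to 15.1 TPM in WT, with Ly6g at 0 in all libraries. Lymphocyte and plasmacytoid dendritic cell markers overlapped between the groups, at 4.79 to 6.27 TPM in iKO, against 4.92 to 5.79 TPM in WT, and Cd3e was at 0 in all. The part of these marker differences in the values of the interferon genes was not tested.

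**Figure D4:**
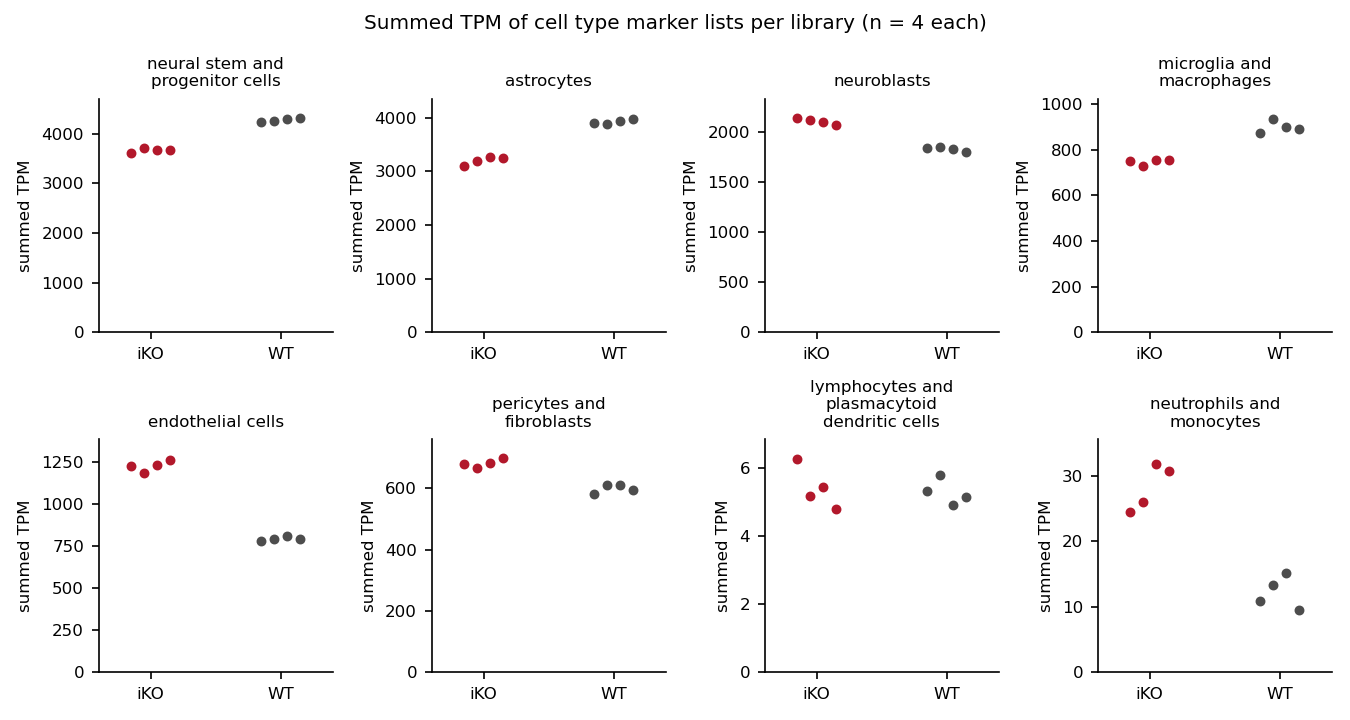
Summed TPM of 8 cell type marker lists in each library, iKO in red and WT in grey, each panel with its own axis from 0. Sums for microglia, astrocytes and NSPCs are lower in all iKO libraries, and those for endothelial cells, neuroblasts, pericytes and neutrophils are higher. Sums for lymphocytes overlap. Slc1a3 alone fell by more than the NSPC sum that it is part of. Rgs5 makes up most of the pericyte sum, and 5 of the 10 markers in it are lower in iKO.

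The Y-linked transcripts moved with the groups as well. A score of 4 Y-linked genes minus Xist was -0.82 to -0.26 in iKO and 0.57 to 1.01 in WT, so it separated the groups completely. With that score as a covariate, Ifitm3 was the only one of the 9 genes still called, at a log2 difference of -0.96 (limma adjusted p = 0.0095). The differences of Irf1, Irf9 and Ifit1 were then -0.63, -0.78 and -1.18 but did not pass, while that of Ifit3 was -0.31 and that of Bst2 was 0.26. Stat2 then stood at 0.09, the reverse of its sign without the score. Because the score and the genotype divide the libraries alike, their parts cannot be told apart.

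**Figure D5:**
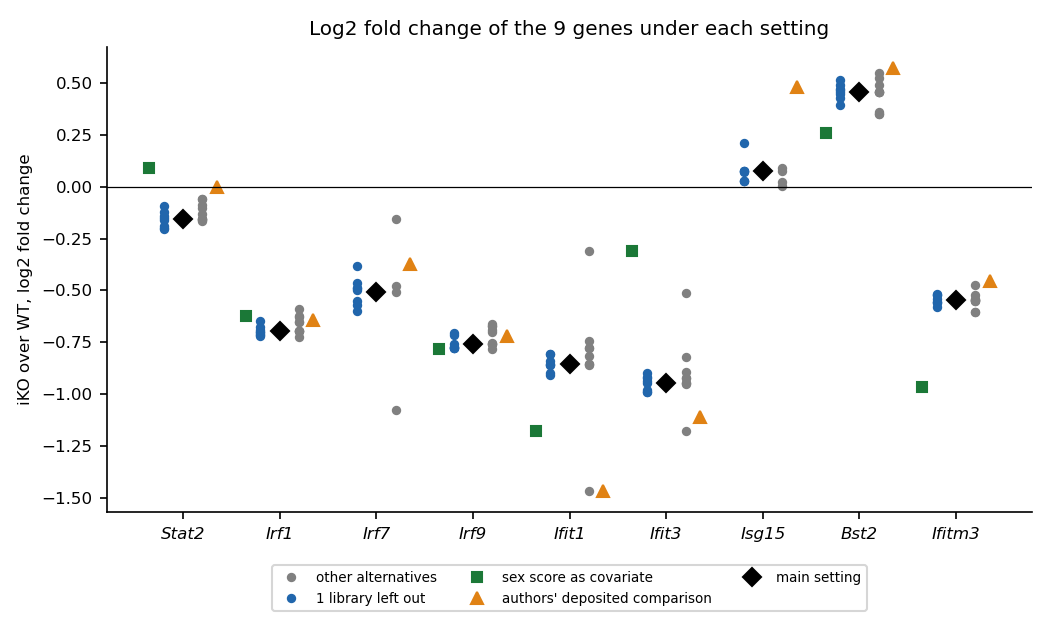
Log2 fold change of each of the 9 genes under the main setting (black diamond), with 1 library left out (blue), with other alternatives (grey), with the Y-linked score as covariate (green) and in the authors' deposited comparison (orange triangle). The 5 genes that fell stay below 0 and Bst2 stays above 0 under every setting drawn, whereas Stat2 crosses 0.

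Across the 8 libraries, the tested genes outside every list whose pattern was most like the mean standardized pattern of the 7 tested genes were Pea15a (Pearson r 0.996), Kdm2a (0.995), Carmil1 (0.995), Gstm1 (0.995) and Nim1k (0.994). Pea15a, for one, averaged 686 ± 15.4 TPM in iKO, against 817 ± 9.70 TPM in WT (SD, n = 4 each). The libraries fall into 2 separate groups, so such a value mostly carries the group difference, and 1362 genes, or 8.3% of those tested, reached at least 0.95. Each of the 7 genes is itself part of the mean pattern, so its r is not independent of that pattern. Among them Irf9 followed the mean pattern most closely (r 0.989), Stat2 less so (0.731), and Bst2 ran against it (-0.875).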

How the data were processed

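The authors deposited TPM per gene and library, and each column sums to 1000000. The log2 fold changes, p-values, test scores and mean normalized signal of a second table were computed by the authors, iKO over WT; per the file headers, the columns are named as DESeq2 names them. No source used here names the aligner, the quantifier or the genome build. limma 3.58.1 (R 4.3.3) was run on log2(TPM + 1) with trend and robust moderation, for genes at 1 TPM or more in 4 or more libraries. Genes below this filter, and sums, had an exact two-sided permutation test over the 70 assignments. The procedure was tested on simulated data. Copies were found with blastn 2.17.0 at 95% identity in GENCODE M21, which held 99.6% of the gene IDs. Promoter windows came from RefSeq. One gene of the signalling lists is not reported here. Sensor genes listed under alternate names counted once. The 9 genes and all lists were chosen with earlier results of these data known. Named genes were the 9, Ash2l, copies, and up to 4 genes of each list with the smallest p and 2 with the largest, all called genes of a list with 5 or fewer calls, and 5 of like pattern. Ddx3y, the markers, genes with overlapping exons, Ifi35, Ifitm1, Xaf1, Ikbke, Traf3, Psmb8, Ifnb1, Ifnk and Ifng were named outside that rule, after their values were seen. Alternatives were other pseudocounts, filters, scalings and weights, the replicate number as a block, each library left out, the Y-linked score and the deposited comparison.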

Additional observations from a re-analysis of the deposited data

Results flagged for a closer look

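Among 18 groups of 4 libraries, 9 genes in each genotype, 2 had a library far from the other 3, where chance gives about 1 in 20. Irf9 in WT replicate 2 stood at 37.95 TPM, while the other 3 WT libraries lay between 32.8 and 32.9 TPM, and the gap was 0.980 of the range. Isg15 in iKO replicate 3 was listed at 0 TPM, while the other 3 iKO libraries stood at 0.46 TPM, a gap of 0.995 of the range. The authors' deposited table gave Isg15 a mean normalized signal of 1.235 per library. At that level any library listed at 0 stands apart, so the 1 in 20 does not apply to Isg15. Without WT replicate 2 or any other single library, the log2 fold change of Irf9 stayed between -0.78 and -0.71. The log2 difference of Isg15, 0.07 with all libraries, was 0.21 without iKO replicate 3, where the groups no longer overlapped and the exact permutation p was 0.0571, the smallest that 3 against 4 allows.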

How the results depend on the processing

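Of 246 alternatives to single values and counts, 223 kept the call of a single value or a count within 1.5 times. With trimmed mean of M values factors 4346 genes were higher and 4160 lower, instead of 3392 and 5237, and the median of the signalling genes, -0.07, was 0.01 with quantile normalization and 0.02 with the length and GC trend removed. With the Y-linked score as covariate the genes changed numbered 423 instead of 8629. The changed members of the 9 genes were 1 instead of 6, signalling genes 0 instead of 7 and response genes 2 instead of 28. The median log2 difference of the tested members of the 9 genes was -0.63 instead of -0.69. For signalling genes it was -0.08 instead of -0.07, and for response genes -0.37 instead of -0.43. Stat2 reversed to 0.089 (limma adjusted p = 0.919). The score and the genotype cannot be told apart. With a mean TPM of at least 5, 15 of 21 response genes were called, because fewer were tested. Of all 11638 genes at that level, 6933 were called. The deposited table called 11 signalling genes instead of 7. Irf7 did not reach 0.05 with trimmed mean of M values factors (exact permutation p = 0.0571) or in the authors' deposited table, and no test without a library could. With no filter on low values limma called Irf7 lower (log2 -0.51, limma adjusted p = 0.0344), although only 2 libraries reached 1 TPM for it. Leaving out each library gave 7942 to 8216 genes, 6 of the 9 genes each time, 7 to 8 signalling genes and 26 to 27 response genes. Replicate numbers did not pair the libraries: same-numbered deviations correlated at -0.0445 to 0.0007. As a hint only, the replicate block gave 8097 genes and called Stat2 (limma adjusted p = 0.0267). With 1 mismatch allowed, the response element core was in all 9 genes and in 62.9% of a regular sample of all windows. Depth is unknown, and below about 1 TPM differences rest on few reads.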
